A study of Homo sapiens with 6 samples.

Results

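The genes described here are 10 enzymes and cofactors that write, maintain or remove DNA methylation, namely TET1, TET2, TET3, DNMT1, DNMT3A, DNMT3B, UHRF1, UHRF2, TDG and MBD4. They were found by gene symbol in the deposited gene table, where they were 10 of 57905 genes. All 10 passed the filter on low counts, as did 15343 genes in all. TET1 was picked for its difference in the comparison made here, between INO80 siRNA and control siRNA, so its fold change and adjusted p are given as a description and support nothing. The other 9 were added for what they do, with results of this comparison already known.

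The study examined what the chromatin remodeler INO80 does in tubule cells, using HK-2 (Human Kidney-2), an immortalized line derived from human renal proximal tubule. All 6 libraries came from this line, grown in medium with 10% fetal bovine serum and collected 48 h after transfection with RNAiMAX. In 3 libraries, of genotype WT in the labels, the cells had received a non-targeting siRNA pool (control siRNA). In the other 3, of genotype knockdown, they had received a pool of siRNAs against INO80 (INO80 siRNA). Because each treatment was a pool in 1 cell line, effects of single siRNAs cannot be told apart. The labels do not say whether the replicates were separate cultures, so the p-values measure the spread between these libraries, which may be technical.

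Gene counts summed to 16829273 to 23784599 per library. INO80 itself, the targeted gene, stood at 46.3, 49.3 and 54.0 counts scaled to library size (CPM) under control siRNA and at 13.8, 12.0 and 14.2 CPM under INO80 siRNA, which is 0.267 of the control mean and a log2 fold change of -1.90 (SE 0.0956, edgeR adjusted p = 0.000161). The libraries held little of several proximal tubule markers. Of 11 such markers, 3 (GGT1, MME and PAX8) had a mean of at least 1 FPKM, the unit that scales a count to both exon length and library total, and the defining factor HNF4A was at 0 in every library. Among markers of other cell types, 4 of 5 epithelial markers reached that level, and CDH1, at 0 to 0.08 FPKM, did not. Of 3 fibroblast and pericyte markers, COL1A1 reached it. None of 2 endothelial, 3 leukocyte, 2 podocyte and 4 distal nephron markers did. In bulk RNA of 1 cell line, a marker low in every cell and a marker present in few cells cannot be told apart. Replicates with the same number deviated together (correlations of 0.582, 0.366 and 0.361 against at most 0.152 between different numbers), with replicate 1 apart from the other two in both groups. A fit blocked on that number is therefore given wherever it changes a call. It compares only 3 pairs, so its p-values rest largely on spread shared across genes.

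DNA methylation in mammals is the addition of a methyl group to cytosine, mostly where a guanine follows (CpG). DNMT3A and DNMT3B set new marks, and DNMT1 copies them onto the daughter strand after replication, guided by UHRF1, which recognizes half-methylated DNA. The TET enzymes oxidize 5-methylcytosine to 5-hydroxymethylcytosine and further forms, using iron and 2-oxoglutarate. TDG excises the most oxidized forms and, like MBD4, removes thymine mispaired with guanine, after which base excision repair restores cytosine. Methylation itself was not measured in these libraries, which hold RNA only.

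The windows around annotated starts differed in CpG between these genes. RefSeq (GRCh38.p14) gave 21 windows for the 10 genes, each from 250 bases before to 50 bases after a start. The first windows of TET1, TET2 and TDG are printed because these genes stood furthest apart between the groups, with every CpG in capitals, 5′ to 3′ on the gene's strand. They lie at chr10:68560087-68560386 (TET1, plus strand), chr4:105145625-105145924 (TET2, plus strand) and chr12:103965622-103965921 (TDG, plus strand).
TET1: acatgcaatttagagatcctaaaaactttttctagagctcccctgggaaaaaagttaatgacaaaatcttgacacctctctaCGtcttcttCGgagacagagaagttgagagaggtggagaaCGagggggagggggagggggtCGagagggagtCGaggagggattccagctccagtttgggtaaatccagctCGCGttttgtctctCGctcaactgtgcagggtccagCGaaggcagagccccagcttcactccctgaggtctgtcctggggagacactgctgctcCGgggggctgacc
TET2: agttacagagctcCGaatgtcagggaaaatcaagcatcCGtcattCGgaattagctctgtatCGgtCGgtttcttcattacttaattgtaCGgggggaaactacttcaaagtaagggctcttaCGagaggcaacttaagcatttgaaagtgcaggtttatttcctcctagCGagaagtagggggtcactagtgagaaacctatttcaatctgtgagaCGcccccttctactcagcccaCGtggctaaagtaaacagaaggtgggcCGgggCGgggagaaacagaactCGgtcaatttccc
TDG: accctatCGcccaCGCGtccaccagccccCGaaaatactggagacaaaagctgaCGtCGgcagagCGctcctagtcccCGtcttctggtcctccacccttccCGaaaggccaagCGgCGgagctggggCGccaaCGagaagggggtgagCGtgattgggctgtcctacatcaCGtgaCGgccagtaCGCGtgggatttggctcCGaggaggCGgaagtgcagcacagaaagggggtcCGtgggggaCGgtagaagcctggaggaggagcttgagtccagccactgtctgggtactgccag
The TET1 window held 10 CpG, the TET2 window 13 and the TDG window 22, against a median of 14 over 35116 windows of the same length from 27305 genes. The second TET2 window held 35. Among the first windows of the 10 genes, that of TET3 held the most, with 45 CpG, and that of DNMT3B the fewest, with 3. The second TET3 window held 33, and DNMT3B had only 1 window. Which starts these cells used was not measured, so a window need not be the main promoter of its gene.

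Under control siRNA the maintenance pair was the most abundant and TET1 the least. Levels between genes are compared in FPKM, which is per exon length. DNMT1 stood at 26.5 ± 0.962 FPKM (SD, n = 3, as for all means below), followed by UHRF1 at 20.2 ± 2.19, DNMT3B at 16.4 ± 1.65, MBD4 at 11.5 ± 1.40, TDG at 9.89 ± 0.755, TET3 at 8.03 ± 0.161, DNMT3A at 5.66 ± 0.384, UHRF2 at 3.88 ± 0.175, TET2 at 2.01 ± 0.0603 and TET1 at 0.513 ± 0.0929 FPKM. Only MBD4 and TDG overlapped as neighbours in this order. DNMT1 lay at percentile 88.1 of the tested genes by control FPKM and TET1 at percentile 12.3. Under INO80 siRNA the order was the same, but UHRF1 and DNMT3B, DNMT3B and MBD4, and MBD4 and TDG overlapped.

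**Figure D1:**
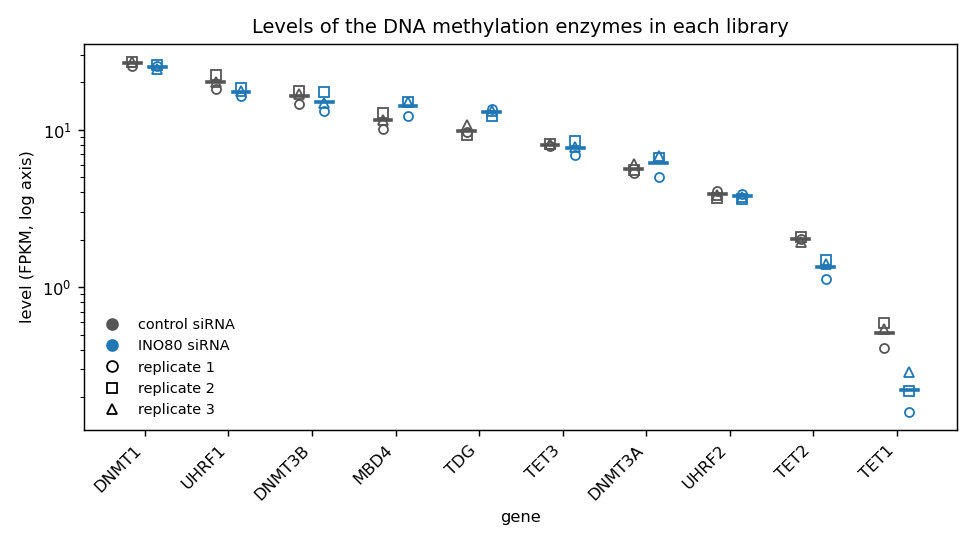
Level of each of the 10 genes in each library, in FPKM on a log axis, with genes in order of their mean under control siRNA. Grey marks are control siRNA and blue marks INO80 siRNA, circles, squares and triangles are replicates 1, 2 and 3, and bars are group means. The range runs from TET1, at 0.513 FPKM under control siRNA, to DNMT1, at 26.5 FPKM.

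Among the TET dioxygenases, TET1 and TET2 were lower under INO80 siRNA in every library than in any control library, and TET3 was not. TET1 (ENSG00000138336, chr10:70320413-70454239 on the plus strand of GRCh37, 9288 exonic bases), which carries a CXXC domain that binds unmethylated CpG, was measured at 3.90, 5.43 and 5.02 CPM under control siRNA and at 1.49, 2.03 and 2.60 CPM under INO80 siRNA. The groups did not overlap, and replicate 1 was the lowest of its group in both. These values rest on few reads. There were 64, 111 and 97 counts under control siRNA and 30, 49 and 63 under INO80 siRNA, with exact Poisson 95% intervals of 49.3 to 81.7, 91.3 to 134, 78.7 to 118, 20.2 to 42.8, 36.3 to 64.8 and 48.4 to 80.6, which cover counting error only. The mean went from 4.78 ± 0.791 to 2.04 ± 0.554 CPM, a ratio of 0.427. Its log2 fold change was -1.22 (SE 0.241, edgeR adjusted p = 0.0478), and these are the values it was chosen on. With the replicate block they were -1.23 (SE 0.186) and 1.83e-05. Without the block, leaving out any 1 library gave an adjusted p between 0.0618 and 0.184.

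TET2 (ENSG00000168769, chr4:106067032-106200973, plus strand, 16474 exonic bases), the TET enzyme often mutated in blood cancers, was measured at 34.2, 33.9 and 31.9 CPM under control siRNA and at 19.1, 24.1 and 22.8 CPM under INO80 siRNA. The 3 INO80 siRNA libraries were all below the 3 controls. TET2 fell by 0.60 on the log2 scale (SE 0.0989, edgeR adjusted p = 0.0299), from 33.3 ± 1.27 to 22.0 ± 2.60 CPM, a ratio of 0.659. With the block the adjusted p was 7.52e-07. Of the 6 fits that each left out 1 library, only the fit without INO80 siRNA replicate 1 kept the call, and the adjusted p ranged from 0.0418 to 0.134.

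TET3 (ENSG00000187605, chr2:74229840-74335303, plus strand, 11439 exonic bases), the TET enzyme of the oocyte and early embryo, was measured at 92.2, 91.9 and 92.7 CPM under control siRNA and at 81.9, 95.1 and 87.0 CPM under INO80 siRNA. The groups overlapped. Its log2 fold change of -0.07 (SE 0.0669) did not pass the test, with an edgeR adjusted p of 0.677, or of 0.312 with the block. TET3 made up most of the summed TET message in both groups, 76.1 ± 0.738% of the summed TET FPKM under control siRNA and 83.2 ± 1.24% under INO80 siRNA. The share of TET1 was 4.85 ± 0.776% and 2.39 ± 0.598%, and that of TET2 was 19.1 ± 0.691% and 14.4 ± 0.697%. TET1 took 3.99, 5.49 and 5.07% of the sum in the control libraries and 1.94, 2.17 and 3.07% in the INO80 siRNA libraries. The sum itself was 10.6 ± 0.244 FPKM under control siRNA and 9.28 ± 0.965 FPKM under INO80 siRNA. The ratio of TET3 to TET2 was 3.99 ± 0.168 and 5.80 ± 0.372. These shares and ratios include the gene the group was chosen on, or a gene already known to differ, and were not tested.

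**Figure D2:**
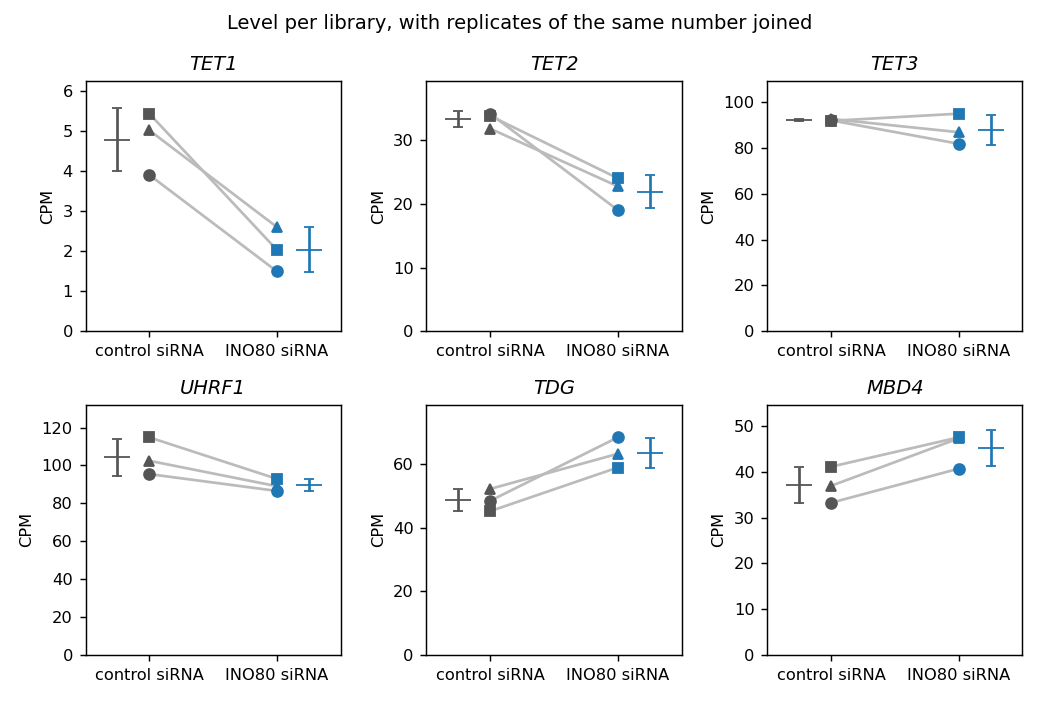
CPM of TET1, TET2, TET3, UHRF1, TDG and MBD4 under control siRNA (grey, left) and INO80 siRNA (blue, right), each axis starting at 0. Circles, squares and triangles are replicates 1, 2 and 3, grey lines join replicates of the same number, and the bars beside them are mean ± SD. TET1 went from 4.78 to 2.04 CPM and TET2 from 33.3 to 22.0 CPM, while the TET3 libraries overlapped.

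TDG and MBD4, the glycosylases among the 10 genes, lay on the other side. Glycosylases outside the 10 did not share a direction. UNG (log2 fold change -0.13) and NEIL2 (0.36) were both called with the block only. TDG (ENSG00000139372, chr12:104359582-104382652, plus strand, 4903 exonic bases) was measured at 48.5, 45.3 and 52.3 CPM under control siRNA and at 68.5, 59.0 and 63.4 CPM under INO80 siRNA. All 3 INO80 siRNA libraries were above all 3 controls, with means of 63.7 ± 4.75 and 48.7 ± 3.51 CPM and a ratio of 1.31. The log2 fold change of 0.39 (SE 0.0812) missed the threshold in edgeR with the treatment alone (adjusted p = 0.0574). It passed with the replicate block (adjusted p = 4.46e-06) and in DESeq2 without it (adjusted p = 0.00701).

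MBD4 (ENSG00000129071, chr3:129149787-129158878, minus strand, 3212 exonic bases), a glycosylase with a methyl-CpG binding domain, was measured at 33.2, 41.1 and 36.9 CPM under control siRNA and at 40.7, 47.5 and 47.3 CPM under INO80 siRNA. The groups overlapped by INO80 siRNA replicate 1, which lay just under control replicate 2, yet each INO80 siRNA library was above the control of its own number. The means were 37.1 ± 3.94 and 45.2 ± 3.89 CPM. The log2 fold change of 0.28 (SE 0.0987) did not pass without the block (edgeR adjusted p = 0.20) and passed with it (adjusted p = 0.000472). The ratio of TDG to TET2, in FPKM, was 4.92 ± 0.526 under control siRNA and 9.91 ± 2.00 under INO80 siRNA. This ratio joins genes already known to differ in opposite directions, and it was not tested.

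Of the maintenance pair, neither gene passed without the block. Their first windows are printed because both hold a 7-letter E2F-type motif, GCGCGAA in DNMT1 (chr19:10194904-10195203, minus strand) and GCGGGAA in UHRF1 (chr19:4909251-4909550, plus strand). The capitals mark the motif or its reverse complement.
DNMT1: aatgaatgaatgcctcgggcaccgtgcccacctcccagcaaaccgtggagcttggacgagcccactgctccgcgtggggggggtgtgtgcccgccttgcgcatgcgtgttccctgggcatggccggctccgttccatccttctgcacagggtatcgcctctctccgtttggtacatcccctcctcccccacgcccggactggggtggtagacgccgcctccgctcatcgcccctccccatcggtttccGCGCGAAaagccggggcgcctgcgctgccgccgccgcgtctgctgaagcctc
UHRF1: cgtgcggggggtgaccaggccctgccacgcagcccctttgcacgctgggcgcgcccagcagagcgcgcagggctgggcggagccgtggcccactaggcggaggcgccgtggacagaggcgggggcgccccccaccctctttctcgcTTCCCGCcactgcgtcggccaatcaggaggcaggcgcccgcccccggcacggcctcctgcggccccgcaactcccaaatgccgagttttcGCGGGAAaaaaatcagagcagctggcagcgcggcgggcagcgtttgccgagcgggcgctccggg
Searched on both strands, GCGGGAA was in 6.55% of all windows, GCGCGAA in 2.24%, GCGCCAA in 3.04% and at least 1 of them in 11.0%. Of the first windows of the 10 genes, 5 held at least 1, those of TET3, DNMT1, UHRF1, UHRF2 and TDG, and of all their 21 windows 6 did. The 11.0% covers all windows, not first ones alone, and is not matched for CpG, which every motif contains. Those 5 first windows held 22 (TDG) to 45 CpG (TET3), against a median of 14 over all windows. Such a match describes letters and not a bound site.

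UHRF1 (ENSG00000034063, chr19:4903092-4962165, plus strand, 5144 exonic bases) was measured at 95.4, 114.8 and 102.5 CPM under control siRNA and at 86.5, 92.9 and 89.0 CPM under INO80 siRNA. The groups did not overlap in CPM, but they did in FPKM. The log2 fold change was -0.22 (SE 0.0766), with an edgeR adjusted p of 0.199 without the block and 0.000476 with it. Each pair of the same number showed the direction, by log2 ratios of -0.14, -0.31 and -0.20. DNMT1 (ENSG00000130816, chr19:10244021-10341962, minus strand, 9805 exonic bases) was measured at 255.8, 263.2 and 264.6 CPM under control siRNA and at 255.2, 250.1 and 235.6 CPM under INO80 siRNA. The groups were separate by less than 1 CPM and overlapped in FPKM. The log2 fold change of -0.08 (SE 0.0552) passed in neither fit (edgeR adjusted p = 0.521, and 0.105 with the block). The span of DNMT1 overlaps S1PR2 and CTD-2369P2.2 on the same strand, which held 46 to 78 and 92 to 139 counts per library. UHRF2 (ENSG00000147854, chr9:6413151-6507054, plus strand, 9919 exonic bases), the paralog of UHRF1, stood at 38.7 ± 2.40 and 37.3 ± 2.25 CPM, and its log2 fold change was -0.05 (SE 0.0784, edgeR adjusted p = 0.802).

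The de novo methyltransferases differed little. DNMT3B (ENSG00000088305, chr20:31350191-31397162, plus strand, 4630 exonic bases) was measured at 69.3, 81.7 and 78.1 CPM under control siRNA and at 63.0, 78.8 and 67.3 CPM under INO80 siRNA. The groups overlapped, although each INO80 siRNA library was below the control of its number. Its log2 fold change of -0.13 (SE 0.0970) gave an edgeR adjusted p of 0.561, and of 0.0387 with the block, a call that was lost without replicate 3 (adjusted p = 0.377) and that DESeq2 with the block did not make (adjusted p = 0.188). DNMT3A (ENSG00000119772, chr2:25455845-25565459, minus strand, 6899 exonic bases) was measured at 37.6, 38.3 and 41.6 CPM under control siRNA and at 35.5, 44.8 and 46.4 CPM under INO80 siRNA. Its pairs did not share a direction, with log2 ratios of -0.08, 0.22 and 0.15, and it passed in neither fit (log2 fold change 0.11, SE 0.106, edgeR adjusted p = 0.677, and 0.21 with the block). Without replicate 1 the blocked fit called both DNMT3A (adjusted p = 0.0141) and DNMT1 (adjusted p = 0.000484). Without the block the same libraries gave neither call (edgeR adjusted p = 0.217 and 0.219). With so few libraries, these blocked p-values rest on spread shared across genes rather than on that of each gene.

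**Figure D3:**
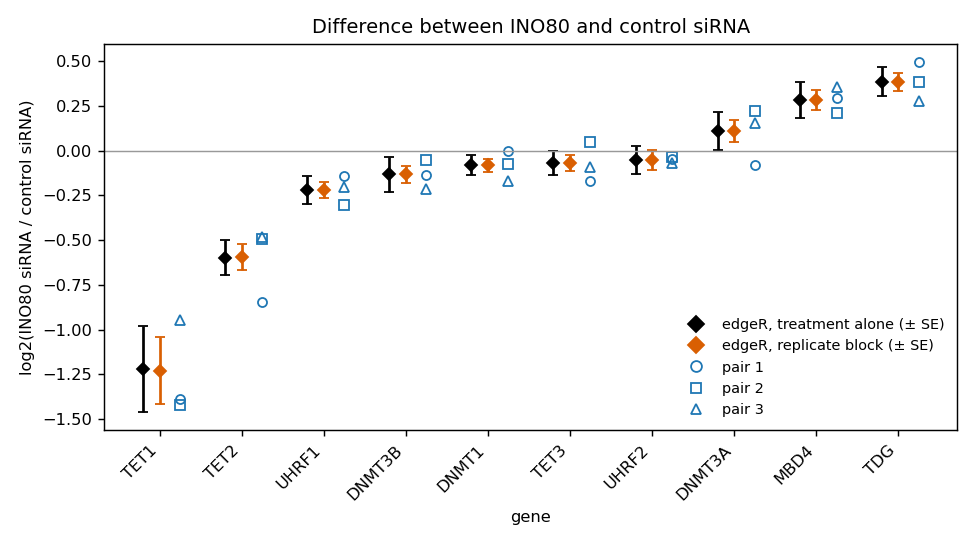
Log2 ratio of INO80 siRNA to control siRNA for each of the 10 genes, in order of the edgeR estimate. Black diamonds are the fit with the treatment alone and orange diamonds the fit with the replicate block, both ± SE, and blue circles, squares and triangles are the ratios within replicates 1, 2 and 3. The estimates run from -1.22 for TET1 to 0.39 for TDG.

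With the treatment alone, edgeR called 2 of the 10 genes lower (TET1 and TET2) and 0 higher, where it called 1.75% of all tested genes, 1.49% lower and 0.261% higher. At an unadjusted p under 0.05, 3 of the 10 were lower and 2 higher, and so were 9.2% and 7.18% of all tested genes, 16.4% in all. With the block it called 4 lower (TET1, TET2, DNMT3B and UHRF1) and 2 higher (TDG and MBD4), where it called 24.8% of all tested genes, 13.4% lower and 11.4% higher. DESeq2 without the block called 3 of the 10 (TET1, TET2 and TDG) and 4.15% of all tested genes. That share counts genes to which DESeq2 gave no adjusted p as not called, so it is low. In CPM, 5 of the 10 did not overlap between the groups (TET1, TET2, DNMT1, UHRF1 and TDG), against 22.8% of all tested genes. In FPKM, DNMT1 and UHRF1 did overlap. The median log2 fold change was -0.07 over the 10 genes and 0.01 over all tested genes. Because the genes were chosen with this comparison known, nothing is read from these counts.

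Genes that work with these enzymes were then counted in 9 lists of 148 genes, of which 119 were tested. edgeR with the treatment alone called 3 of the 119, all lower, where it called 1.75% of all tested genes. With the block it called 36, where it called 24.8% of all tested genes, 13.4% lower and 11.4% higher. Base excision repair, which completes the work of TDG and MBD4, had 1 of 20 tested genes lower and 0 higher, with a median log2 fold change of 0.04. The gene was PARP2, a sensor of DNA strand breaks, which fell from 55.0 ± 2.59 to 41.0 ± 0.959 CPM (log2 fold change -0.42, SE 0.0648, edgeR adjusted p = 0.0236). Of the 6 fits that each left out 1 library, only the fit without control siRNA replicate 1 kept this call (adjusted p 0.0364 to 0.123). With the block 4 genes of this list were lower and 2 higher. The demethylases of RNA and alkylated DNA, which like the TET enzymes use iron and 2-oxoglutarate, had 1 of 9 lower and 0 higher, with a median of 0.06. That gene was FTO, an RNA demethylase, at 23.2 ± 0.806 and 15.8 ± 0.532 CPM (log2 fold change -0.56, SE 0.0827, edgeR adjusted p = 0.0224), a call that only the fit without INO80 siRNA replicate 1 kept (adjusted p 0.048 to 0.115). With the block FTO and ALKBH8 were lower. Among imprinted genes, whose parental alleles differ in methylation, 1 of 16 was lower and 0 higher, with a median of 0.03. It was PEG10, a gene derived from a retrotransposon, at 1593 ± 101 and 1241 ± 76.7 CPM (log2 fold change -0.36, SE 0.0706, edgeR adjusted p = 0.0476), a call that none of these 6 fits kept (adjusted p 0.0643 to 0.202). With the block 3 imprinted genes were lower and 3 higher.

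Beside the block counts below, 13.4% of all tested genes were lower and 11.4% higher with the block. In the other 6 lists edgeR with the treatment alone called 0 genes. At an unadjusted p under 0.05 it found 1 reader, 4 DNMT partners, 1 TET partner, 2 methionine cycle genes, 0 germline genes and 3 S phase genes, where it found 16.4% of all tested genes, and DESeq2 called 1 DNMT partner, 1 S phase gene and 0 in the other 4 lists. Of 9 readers of 5-methylcytosine, 1 was lower and 1 higher with the block, with a median of 0.02 without it, and the genes of smallest p were ZBTB38 (log2 fold change -0.26, edgeR adjusted p = 0.175, and 2.08e-05 with the block) and MBD2 (0.09, adjusted p = 0.447). Of 13 tested DNMT partners, 3 were lower and 2 higher with the block, with a median of 0.04. They include HELLS, a remodeler needed for methylation of repeats, at 102.8 ± 11.0 and 79.1 ± 9.96 CPM (log2 fold change -0.38, edgeR adjusted p = 0.129, and 4.1e-07 with the block), and CDCA7L (-0.17, adjusted p = 0.249, and 0.025 with the block). Of 15 tested TET partners and enzymes of 2-oxoglutarate supply, 1 was lower and 3 higher with the block, with a median of 0.04. IDH3A (log2 fold change -0.20, edgeR adjusted p = 0.303) and D2HGDH, which clears 2-hydroxyglutarate (0.47, adjusted p = 0.305, and 0.000967 with the block), had the smallest p. Of 15 tested genes of the methionine cycle, which supplies the methyl donor, 2 were lower and 3 higher with the block, with a median of 0.01. NNMT (log2 fold change 0.22, edgeR adjusted p = 0.175, and 6.33e-05 with the block) and MTR (0.17, adjusted p = 0.274, and 0.00417 with the block) came first by p.

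Of 15 germline genes listed for promoter methylation in somatic cells, 2 had enough counts to be tested. They were TDRD9, at 120.9 CPM under control siRNA (log2 fold change 0.05, edgeR adjusted p = 0.725) and MAEL (0.18, adjusted p = 0.897), neither called in either fit, and 5 of the 15 were at 0 in all 6 libraries. S phase genes are listed because DNMT1 and UHRF1 vary with the cell cycle. Of 20, 5 were lower and 1 higher with the block, where 13.4% and 11.4% of all tested genes were. The median of the 20 was -0.06 without the block. CCNE2, a cyclin of S phase entry, had a log2 fold change of 0.41 (edgeR adjusted p = 0.0574, and 6.83e-05 with the block) and MCM5, a helicase subunit, one of -0.19 (adjusted p = 0.207, and 0.000365 with the block). MCM2, another helicase subunit that the list left out and that is named after its values were seen, fell from 251.6 to 114.9 CPM (log2 fold change -1.13, edgeR adjusted p = 0.00852). The part of the cell cycle in the values of UHRF1 and DNMT1 was not tested.

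**Figure D4:**
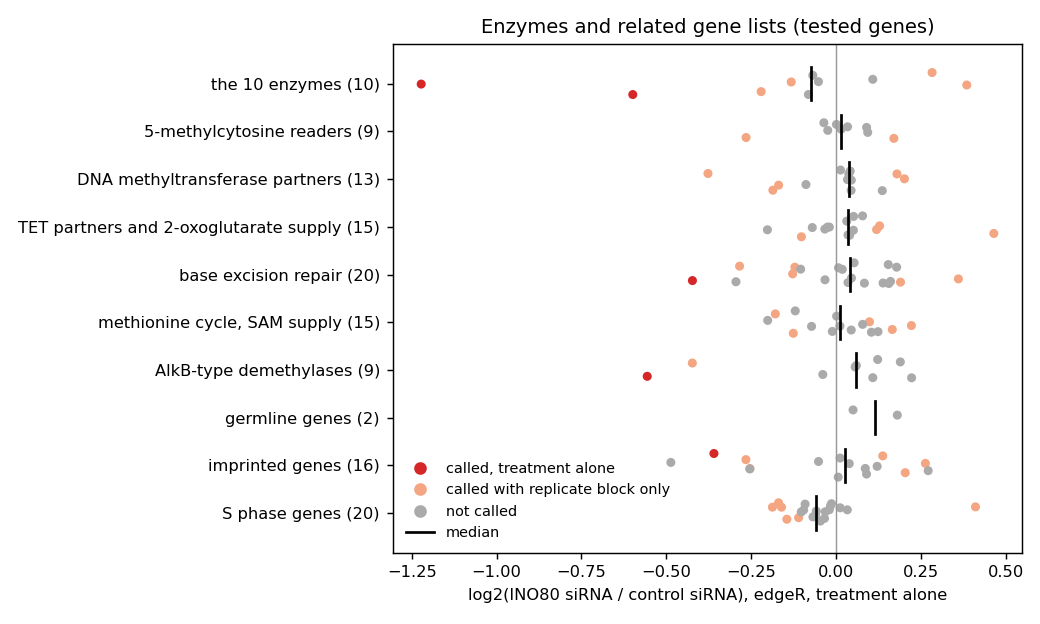
Log2 ratio of INO80 siRNA to control siRNA of each tested gene (edgeR, treatment alone), with 1 line for the 10 enzymes and 1 for each list, and the number tested in parentheses. Red points were called with the treatment alone, light orange points with the replicate block only, grey points in neither, and black bars are medians. The medians of the lists lie between -0.06 (S phase genes) and 0.12 (the 2 germline genes).

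The genes around TET1 on chromosome 10 were taken next. The table held 38 other genes whose spans lie within 500 kb of TET1, and 15 were tested. With the treatment alone edgeR called 0 of the 15, while 4 were lower and 1 higher at an unadjusted p under 0.05 (16.4% of all tested genes) and DESeq2 called 1 lower. With the block 3 were called lower and 1 higher, where 24.8% of all tested genes were called. Their median log2 fold change was -0.03. KIAA1279 had the lowest adjusted p (log2 fold change -0.36, edgeR adjusted p = 0.0912). The lower genes with the block were KIAA1279, HNRNPH3 (log2 fold change -0.17) and VPS26A (-0.19), and the higher one was SUPV3L1 (0.22). MYPN was at 0.64 and 0.301 CPM, with a log2 fold change of -1.06 that did not pass (edgeR adjusted p = 0.278). The pseudogene COX20P1, which lies inside the TET1 span on the same strand, held 26 to 32 counts per library, and its log2 fold change was -0.47 (edgeR adjusted p = 0.384). The pseudogene TET1P1 had 0 counts in every library.

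**Figure D5:**
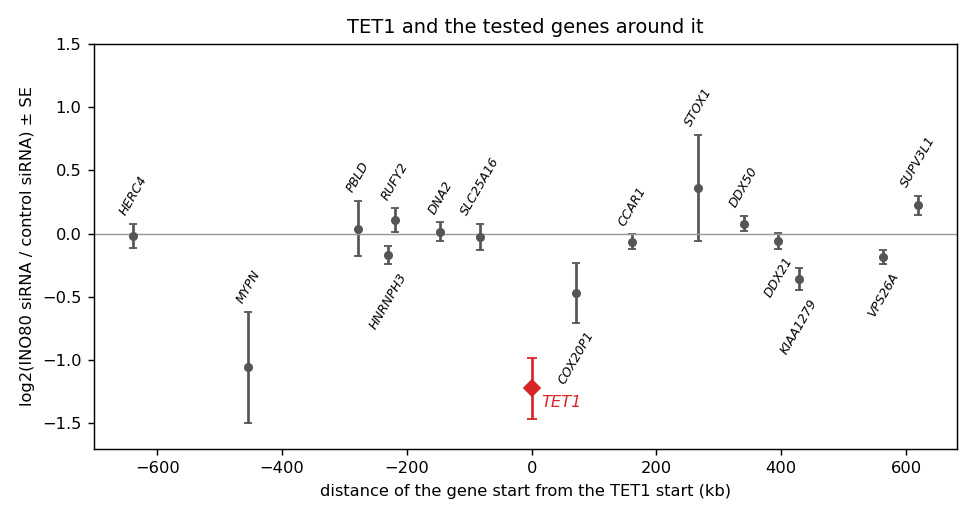
Log2 ratio of INO80 siRNA to control siRNA (edgeR, treatment alone, ± SE) of TET1 (red diamond) and the 15 tested genes within 500 kb of its span (grey), against the distance of each gene's start from that of TET1 in kb. TET1 is at -1.22 and the others run from -1.06 (MYPN) to 0.36 (STOX1).

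The genes whose CPM followed TET1 most closely across the 6 libraries, by Pearson's r of log2(CPM + 0.1), were ZWINT (0.999), CAPZA1 (0.994), PNPLA4 (0.994), DNPH1 (0.994) and CNNM3 (0.993). ZWINT is a kinetochore protein and CAPZA1 a subunit of the actin capping protein. Of these, DNPH1 (log2 fold change -0.49, edgeR adjusted p = 0.0409) and CNNM3 (-0.51, adjusted p = 0.0467) were called. Among the 10 enzymes TET2 followed TET1 with r = 0.939 and UHRF1 with 0.871, and TDG ran opposite with -0.907. The points share libraries, depth and the difference between the groups, so these are descriptions of 6 libraries.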

How the data were processed

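RNA-seq was performed on poly(A) RNA from 6 HK-2 libraries. The authors deposited 1 gene table with a raw read count and an FPKM value per gene and library. The submitters' processing notes list HISAT2 2.0.1, HTSeq and hg19, whereas the study's methods name ELAND and hg38. The table places TET1 at 70320413, and RefSeq on GRCh38 at 68560337. Table coordinates are therefore given as GRCh37 and the windows around starts as GRCh38.p14. Whether counting used strand is not given in the sources used here. The deposited FPKM equalled the count per exonic length and library total within 0.011 for 347430 of 347430 values.

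The members and lists were chosen with earlier results of these data known. Counts were tested in R 4.3.3 with edgeR 4.0.16 (filterByExpr, TMM, quasi-likelihood test, treatment alone), with Benjamini-Hochberg adjustment over 15343 genes. Each SE is the absolute log2 fold change over the square root of its F statistic. A gene was called at an adjusted p under 0.05. CPM are TMM-scaled. Total counts were 16829273 to 20311588 under control siRNA and 20678008 to 23784599 under INO80 siRNA. Replicate numbers come from the sample titles. They were taken to pair the libraries because every same-number correlation of deviations from the group means exceeded 0.1. This mark does not establish pairing, since replicates 2 and 3 also exceeded it across the groups (0.152 and 0.129). The labels name no pairing. The block fit, RLE scaling, no filter, DESeq2 1.42.0 with and without block, and leaving out libraries were alternatives. The fit was tested on simulated data. Named genes were the 10 members, INO80, the called genes of each list (otherwise the 2 of smallest p), tested genes within 500 kb of TET1, and the 5 most correlated with it. One further item is not reported here.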

Additional observations from a re-analysis of the deposited data

How the results depend on the processing

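Of 150 refitted log2 fold changes of the 10 genes, 117 kept their direction and their side of the threshold, 22 passed newly, 11 no longer passed and 0 changed direction. The main counts were 268 genes called in all and 2 of the 10. No filter called 708 in all and 3 of the 10, with 1 DNMT partner and 1 S phase gene. DESeq2 called 637 and 3, with 1 DNMT partner and 1 S phase gene. The replicate block, with the pairing taken from the replicate numbers, called 3798 and 6. By list it called 2 readers, 5 DNMT partners, 4 TET partners, 6 repair genes, 5 methionine cycle genes, 2 demethylases, 6 imprinted genes and 6 S phase genes. DESeq2 with the block called 1852 and 5, and by list 1, 2, 1, 4, 4, 2, 3 and 4 in that order. Leaving out 1 library gave 18 to 146 genes in all, and leaving out a pair under the block gave 3978, 2623 and 2251. Together they gave 0 to 8 of the 10. By list they gave 0 to 2 readers, 0 to 3 DNMT partners, 0 to 5 TET partners, 0 to 6 repair genes, 0 to 5 methionine cycle genes, 0 to 3 demethylases, 0 to 6 imprinted genes and 0 to 7 S phase genes. Without replicate 1 in both groups, an alternative chosen after seeing the data, 528 genes and 2 of the 10 were called, with 2 imprinted genes and 1 S phase gene. The cause of these changes was not tested. RLE scaling called 280 and 2. TET1 is limited by depth, with 30 to 111 counts per library.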
